A study of Saccharomyces cerevisiae with 94 samples.

Results

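The transcriptomes of sml1Δ SSDDCS and sml1Δ yeast were compared 25 min after release from G1, using the 3 SSDDCS and 3 sml1Δ RNA-seq libraries that the labels give for this time, of 94 libraries in the series. SSDDCS cells carry added copies of CDC45, SLD7, DPB11, SLD2, DBF4 and SLD3 behind the galactose-inducible GAL1-10 promoter. The pair Sld7-PGAL1-10-Cdc45::LEU2 sits at leu2, a further construct, SLD3-A-PGAL1-10-Dbf4-A::HIS3, at his3 and the remaining pair, Sld2-PGAL1-10-Dpb11::TRP1, at trp1, and SML1 is replaced by a hygromycin marker (sml1Δ::HphNT). Control sml1Δ cells carry sml1Δ::URA3 and none of the added copies. Both strains are MATa in the W303 background with the alleles ura3-1, trp1-1 and ade2-1, with can1-100 and rad5-535, and with his3-11,15 beside leu2-3, 112, so the strains differ in nutritional markers as well as in the replication factors. Cultures were held in G1 with alpha factor, given galactose for 30 min in the arrest and released in galactose medium at 30°C. Each strain is a single genotype, and the numbered replicates 1, 3 and 4 are separate cultures.

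Budding yeast DNA replication starts from defined origins, which are licensed in G1 and fire in a temporal order through S phase. The 6 factors are limiting for this firing. Sld3, Sld7 and Cdc45 bind the loaded Mcm2-7 helicase, Dbf4 activates the kinase Cdc7, and Sld2 and Dpb11 complete the active helicase. Sml1 holds back ribonucleotide reductase, which supplies deoxyribonucleotides, and its absence from both strains raises that supply. The comparison asks which transcripts differ when many origins fire early, at a time when control cells are in S phase.

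Levels are given as normalised read counts, in which the reads of a gene are scaled by the size factor of the library. The 6 libraries held between 9240810 and 20952338 reads in genes, replicate 1 of both strains being the deepest. Among the sml1Δ libraries, replicate 3 stood apart. Its log2 values deviated from the mean of the other pair with an SD of 0.47, against 0.32 and 0.31 for sml1Δ replicates 1 and 4 and 0.21 to 0.24 for the SSDDCS libraries. It lay closer to the mean of the other sml1Δ cultures at 20 min (root mean square distance 0.40) than at 25 min (0.48). The 20 min mean includes a culture that has no labelled library at 25 min. Counts are also given without sml1Δ replicate 3. Each fit named as without a replicate leaves out that culture at all its times. The strain labels held for all 6 factors. DPB11 reached 18284, 20072 and 21222 in SSDDCS replicates 1, 3 and 4, against 573, 597 and 557 in sml1Δ (log2 difference 5.10, SE 0.10, limma adjusted p 6e-55). The other factors were 2.95 (SLD3) to 3.84 (SLD2) higher on the log2 scale, and for CDC45 and SLD7 SSDDCS replicate 3 gave the lowest SSDDCS value. The markers HIS3 (4.82) and TRP1 (3.96) were higher, whereas LEU2 (−1.79) and URA3 (−0.80) were lower in SSDDCS.

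Of 6404 genes tested apart from these 10, 798 (12.5%) were called higher and 578 (9.03%) lower in SSDDCS, together 21.5%, by limma at an adjusted p under 0.01. Higher calls were larger: their median difference was 0.84 on the log2(value + 1) scale, against −0.42 for lower calls and −0.02 for all genes. Differences of at least 2-fold were found for 327 called genes (5.11%), 315 higher and 12 lower. In 570 of the 798 higher genes (71.4%) the SSDDCS mean exceeded each of the 12 sml1Δ time-point means, G1 and 60 min included, which held for 16.1% of all genes. For 319 of the 578 lower genes (55.2%) it was below all 12, against 17.1% of all genes. The called genes were chosen by their difference from a mean that is among these 12. That choice favours larger shares, so the shares of all genes are not a matched background. A model with a block for the replicate number retained all 1376 calls and called 1062 genes higher and 869 lower. Without sml1Δ replicate 3 the counts were 778 higher and 637 lower, and without SSDDCS replicate 1 or 4 they were 546 and 345, or 533 and 343. A fit to the 6 libraries alone called 357 higher and 42 lower. The libraries of the strains did not overlap for 43.0% of all genes, and for 791 of the higher and 566 of the lower calls. Higher genes made up 58.0% of calls, 69.2% with equal library totals and 43.9% with quantile normalization.

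**Figure D1:**
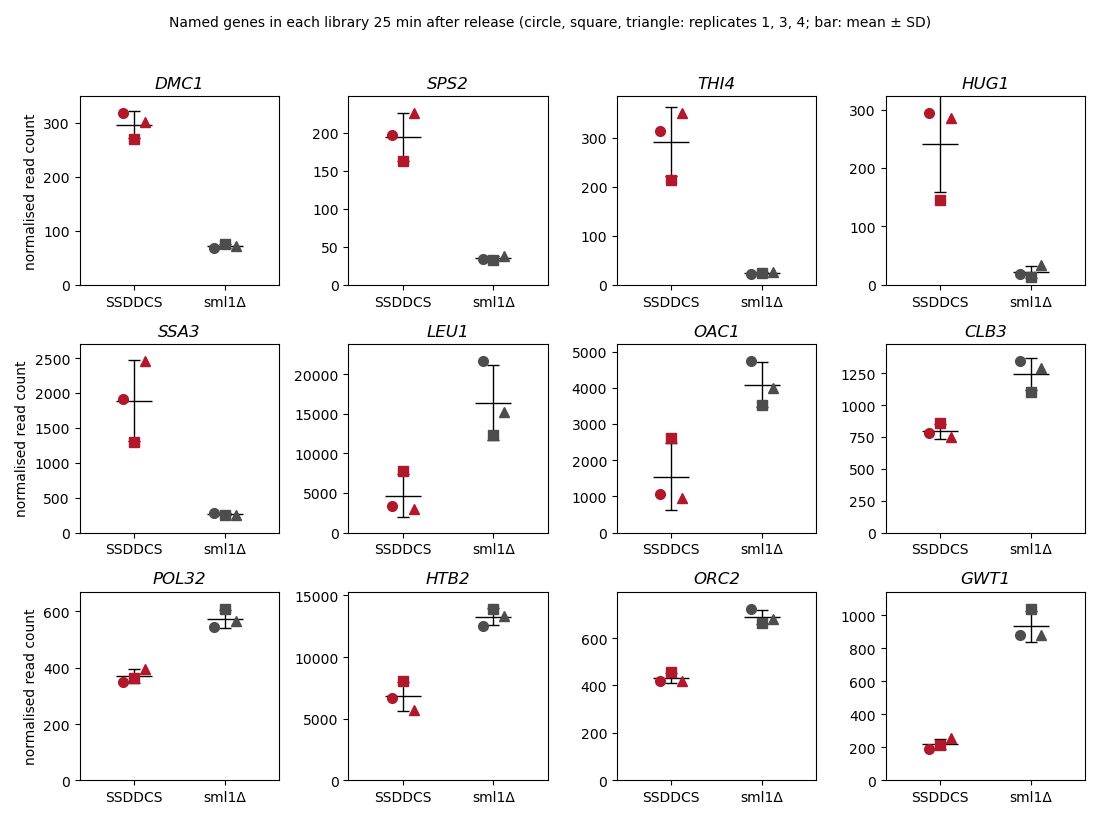
Normalised read counts (vertical axes, linear from 0) of 12 named genes at 25 min, with SSDDCS libraries (red) left of sml1Δ libraries (grey); circles, squares and triangles are replicates 1, 3 and 4 and bars are mean ± SD. In all 12 genes the 3 SSDDCS values lie apart from the 3 sml1Δ values, and in LEU1 and OAC1 the square, SSDDCS replicate 3, sits nearest to the control.

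Genes of meiosis were among those higher in these mitotic, MATa cells. In yeast the meiotic programme starts with Ime1, which turns early genes on at URS1 sites bound by Ume6. It continues with Ndt80, which activates the middle sporulation genes. Of 9 regulators tested, 5 were called higher and IME4, an mRNA methyltransferase gene named after its value was seen, was called lower (−0.49). Among all genes 12.5% were called higher and 9.03% lower. RIM15, encoding a nutrient-signalling kinase needed for entry into meiosis, had 2318, 1902 and 2583 in SSDDCS, against 654, 800.0 and 758 in sml1Δ (log2 difference 1.61, SE 0.14, limma adjusted p 5e-15). IME1 itself was low in both strains, at 84.2, 81.7 and 112 in SSDDCS and 40.7, 59.0 and 28.6 in sml1Δ (1.14, SE 0.28, limma adjusted p 0.000925). The groups did not overlap for either gene. IME2 (1.27), which encodes the kinase downstream of Ime1, RIM4 (0.95), an RNA-binding repressor of translation, and NDT80 (0.49) were also called higher. Without SSDDCS replicate 4 or sml1Δ replicate 4, 3 regulators were called higher. In bulk RNA, transcripts from few cells and low transcript levels in many cells cannot be told apart.

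Among 24 early meiotic genes tested, 14 were called higher (12.5% of all genes were) and none lower, with a list median of 0.70. DMC1, the meiosis-specific recombinase, had 317, 269 and 302 in SSDDCS, against 69.0, 75.7 and 71.6 in sml1Δ. All SSDDCS values lay well above all sml1Δ values, with a log2 difference of 2.02 (SE 0.26, limma adjusted p 4.51e-09). REC114, needed for the double-strand breaks that start recombination, had 206, 258 and 238 in SSDDCS and 89.0, 131 and 78.7 in sml1Δ (1.25, limma adjusted p 5.8e-08). MND1 (1.57), a partner of Dmc1, and MSH4 (1.31), a crossover factor, were also called higher. The remaining list members ranged down to −0.31. Without sml1Δ replicate 3, 13 were called higher, and without SSDDCS replicate 3 there was 1 lower call. With quantile normalization 10 were called higher and 3 lower.

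Because Ume6 recognises URS1, the 300 bases before each gene were searched on both strands for its core, AGCCGCC. It occurred before 128 of 5808 genes (2.2%) and before 12 of the 24 early meiotic genes (50.0%). It was found before 6 of the 14 early meiotic genes called higher and before 6 of the 10 that were not. The windows below, chosen after the values were seen, show it in 3 genes called higher and in a pair that was not called. They are 27 bases each, 5′ to 3′ on the gene's coding strand, from the R64 reference, with the core in capitals (as AGCCGCC, or as GGCGGCT where it lies on the opposite strand).
DMC1, chrV:548272-548298, plus strand: accggaaaatAGCCGCCcaaggataaa
REC114, chrXIII:536105-536131, plus strand: ttacaaggtgGGCGGCTaacttataaa
HOP1, chrIX:226421-226447, plus strand: ttttaacctgGGCGGCTaaattgtact
SPO16, chrVIII:402754-402780, minus strand: gtgaaaagtgGGCGGCTaaaaccgaga
HOP2, chrVII:435486-435512, plus strand: ttatgtcctcGGCGGCTaaattttcca
HOP1, which encodes a component of the meiotic chromosome axis, was 0.82 higher (limma adjusted p 0.000235), and SPO16 and HOP2 were each at −0.31 (limma adjusted p 0.558 and 0.517). The same core therefore stood before genes on both sides of the threshold. Outside the early meiotic list, 27 of 116 genes with the core were called higher. All 116 had a median of 0.16, and genes outside that list without the core a median of −0.03. Of all 5808 genes searched, the early meiotic list included, 738 were called higher.

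The middle sporulation list also gave higher calls. Of 26 tested, 14 were called higher (12.5% of all genes were) and none lower, with a median of 0.86. In 20 the strains' libraries did not overlap in that direction, which occurred for 22.4% of all genes. SPS2, a spore wall gene, had 197, 162 and 225 in SSDDCS, against 34.5, 32.3 and 38.2 in sml1Δ (2.44, SE 0.24, limma adjusted p 4.12e-13). SPS4 (2.89), CDA2 (2.10), a chitin deacetylase of the spore wall, and SPS100 (2.07), a spore wall maturation gene, were the next examples. Outside that list, LDS1, which encodes a lipid droplet protein of spore formation, had 399.9, 338 and 426 in SSDDCS and 29.5, 49.0 and 41.8 in sml1Δ (3.27, SE 0.37, limma adjusted p 5.41e-11). The Ndt80 core site, CACAAAA, lay within 300 bases before 7 of the 14 genes called higher, 8 of the 12 not called and 7.92% of all genes.

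Several metabolic and transporter families gave higher calls. Of 22 thiamine genes, 11 were called higher and none lower, while 12.5% of all genes were called higher and 9.03% lower. THI4, which makes the thiazole part of the vitamin, had 314, 214 and 350.4 in SSDDCS, against 21.3, 23.4 and 26.2 in sml1Δ. The difference was 3.55 (SE 0.29, limma adjusted p 1.21e-16), and all stretches of 50 bases of THI4 occur at a single place in the genome. THI5, THI11, THI12 and THI13, near-identical genes of the pyrimidine branch, were 2.34 to 2.62 higher, but only 15.0% to 40.0% of their stretches are unique, so the copies are uncertain. Without SSDDCS replicate 1 or 4 or sml1Δ replicate 3 or 4, 8 thiamine genes were called higher. With quantile normalization 9 were called higher and 2 lower. Of 16 hexose transporter genes, 10 were called higher. HXT14 had 111, 93.2 and 108 in SSDDCS and 2.51, 8.90 and 8.35 in sml1Δ (3.93, SE 0.43, limma adjusted p 2.58e-11), and HXT10 was 2.61 higher. HXT9 (1.82) and HXT12 (1.80) share much of their sequence with other members. All 15 PAU genes, cell wall mannoprotein genes mostly near chromosome ends, were called higher (1.21 to 2.42). In 12 of the 15, under 80% of stretches are unique, so how many members contribute cannot be told apart.

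The DNA damage list gave 3 higher calls of 15 tested (12.5% of all genes were called higher) and no lower call. HUG1, a small inhibitor of ribonucleotide reductase induced by the Mec1 checkpoint, had 294, 146 and 286 in SSDDCS, against 18.8, 13.4 and 33.4 in sml1Δ. Replicate 3 was the lowest in both strains, the groups did not overlap, and the difference was 3.44 (SE 0.40, limma adjusted p 1.07e-10). HUG1 already differed by 1.15 in G1. RNR3 (1.36), the damage-inducible subunit of ribonucleotide reductase, and RFX1 (0.60), the repressor of both genes, were also called higher. The other 12 members ranged from −0.32 to 0.65. With the replicate block 5 members were called higher and 1 lower, and without sml1Δ replicate 3 the counts were 4 and 1.

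Heat shock and stress genes gave further higher calls, 9 of 20 and 7 of 21, with no lower call in either list. The shares over all genes were 12.5% higher and 9.03% lower. Their medians were 0.52 for heat shock genes, which had a median of 0.48 in G1 already, and 0.75 for stress genes (0.19 in G1). Relative to G1, 3 heat shock genes were called with a positive and 1 with a negative change, and 3 stress genes with a positive change. The Hsp70 gene SSA3 had 1913, 1295 and 2458 in SSDDCS, against 276, 255 and 257 in sml1Δ (2.79, SE 0.20, limma adjusted p 4.33e-19). The related SSA4 was 2.23 higher, HSP30, a plasma membrane stress protein gene, 2.42, and HSP26, a small heat shock protein gene, 3.08. For HSP26 sml1Δ replicate 3 (90.1) was above sml1Δ replicates 1 (33.2) and 4 (40.6), though below every SSDDCS value. GPD1, the glycerol-3-phosphate dehydrogenase of the osmotic response, had 2823, 1727 and 2475 in SSDDCS and 449, 846 and 349.6 in sml1Δ (2.17, limma adjusted p 4.91e-05). GRE1 (1.69), SOL4 (1.58) and RTN2 (1.53) were also called higher. Without SSDDCS replicate 1 or 4, 4 stress genes were called. SPG4, a stationary phase gene, reached 73.9, 49.2 and 89.5 in SSDDCS, against 2.51, 5.56 and 4.77 in sml1Δ (3.77, SE 0.81, limma adjusted p 0.000156).

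Replication genes went the other way. Of 34 replisome genes apart from the over-expressed factors, 10 were called lower (9.03% of all genes were) and none higher. In this list 30 were below 0 and the median was −0.28. POL32, a subunit of DNA polymerase delta, had 349, 362 and 397 in SSDDCS, against 545, 609.7 and 568 in sml1Δ (−0.64, SE 0.12, limma adjusted p 1.29e-05). POL2 (−0.60) and POL3 (−0.56), the catalytic subunits of polymerases epsilon and delta, and RFC4 (−0.45), of the clamp loader, were also called lower. Without sml1Δ replicate 3, whose POL2 value (2629) was the highest of that strain, 5 were called lower and the median was −0.15. Of 14 licensing genes 2 were called lower and 1 higher, near the 9.03% and 12.5% of all genes, with a median of −0.06. All 3 encode subunits of the origin recognition complex. ORC2 was called lower at −0.68, with 417, 457 and 419 in SSDDCS and 723, 664 and 681 in sml1Δ. ORC3 (−0.52) was also called lower and ORC5 (0.49) higher. The ORC5 call was lost without SSDDCS replicate 1 or 4 or sml1Δ replicate 3 or 4 (without sml1Δ replicate 3 another member was called higher), and 1 lower call was left without SSDDCS replicate 1 or 4 or sml1Δ replicate 1 or 4.

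Core histone transcripts had lower values in all SSDDCS libraries than in all sml1Δ libraries, but none passed the threshold. HTB2, an H2B gene, had 6669, 8056 and 5676 in SSDDCS, against 12543, 13920 and 13299 in sml1Δ (−0.98, SE 0.35, limma adjusted p 0.0262). All 8 core histone genes had SSDDCS values below all sml1Δ values, which occurred for 20.6% of all genes, and their differences ran from −0.98 to −0.53. The SE of HTB2 comes from the spread shared by all 94 libraries. In the 6 libraries alone 3 of the 8, HTB2 among them, were called lower. Of 13 histone chaperone and regulator genes 2 were called, both lower, while 9.03% of all genes were called lower. They were HIR2 (−0.40) and HPC2 (−0.50), subunits of the HIR histone chaperone that represses histone genes outside S phase. With the replicate block 4 of the list were called lower.

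Most cell cycle lists gave few calls. Among 23 G1/S genes PLM2 (0.64), a transcription factor gene, was the single call. The G1/S cyclins were not called: CLN2 differed by −0.50 (limma adjusted p 0.337), CLB5 by −0.31 (0.235) and CLB6 by 0.43 (0.181), each with overlapping libraries. CLB3, a B-type cyclin of S/G2, was called lower, with 781, 861 and 746 in SSDDCS and 1345, 1102 and 1287 in sml1Δ (−0.64, SE 0.10, limma adjusted p 2.12e-07). Of 16 spindle and kinetochore genes 4 were called lower (9.03% of all genes were): NUF2 (−0.55), DSN1 (−0.45), BIM1 (−0.45) and BIK1 (−0.41). None of these calls was kept without SSDDCS replicate 1, 1 gene was called without SSDDCS replicate 4, and 2 were called without SSDDCS replicate 3, sml1Δ replicate 1 or sml1Δ replicate 4. With the replicate block, or without sml1Δ replicate 4, 1 G1/S gene was called lower.

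Markers of other cell states were examined in the same way. Of 14 G2/M genes none was called (median 0.31, KIN3 at 0.94 with limma adjusted p 0.0577). Of 11 M/G1 genes none was called either (median 0.77, EGT2 at 1.49 with limma adjusted p 0.0886), and with the replicate block each list had 1 higher call, as had both without sml1Δ replicate 4 and the M/G1 list without sml1Δ replicate 3. The summed level of the G2/M genes was 5851 to 7773 in SSDDCS and 4101 to 7661 in sml1Δ, and that of the M/G1 genes 3313 to 3847 in SSDDCS and 2219 to 2793 in sml1Δ. In the 6 libraries alone 4 M/G1 genes were called higher. Of 17 pheromone-induced genes, which mark cells still responding to alpha factor, 5 were called higher and none lower. Over all genes 12.5% were called higher. The list had a median of 0.58 and a summed level of 5920 to 7025 in SSDDCS and 4558 to 4997 in sml1Δ. FUS1, needed for cell fusion in mating, had 233, 175 and 164 in SSDDCS and 89.0, 83.4 and 71.6 in sml1Δ (1.21, limma adjusted p 9.97e-05). PRM6 (1.71), ASG7 (1.29) and AGA1 (1.00) were other members called higher, and without sml1Δ replicate 4 the list had 3 calls. AGA1 averaged 22832 in G1, 436 at 5 min and 834 at 25 min in SSDDCS, and 19176, 347 and 416 in sml1Δ. At the same times ASG7 averaged 1725, 98.8 and 86.8 in SSDDCS, and 1575, 112 and 35.5 in sml1Δ. BAR1, whose secreted protease destroys alpha factor and which marks a cells, had 288, 145 and 271 in SSDDCS and 60.2, 54.5 and 71.6 in sml1Δ (1.85, limma adjusted p 0.00112). Of 6 a-specific genes BAR1 and STE2 (0.71), the alpha-factor receptor gene, were called higher, and no call was left without SSDDCS replicate 1 or 4. Without SSDDCS replicate 3, sml1Δ replicate 1 or sml1Δ replicate 4, 1 call was left. Of 4 alpha-specific genes, SAG1 (0.64), an agglutinin gene, and STE3 were called higher. STE3, the a-factor receptor gene, had 172, 110.0 and 199 in SSDDCS, against 32.6, 33.4 and 20.3 in sml1Δ (2.43, SE 0.30, limma adjusted p 7.53e-10). The summed level of the alpha-specific genes was 807 to 1027 in SSDDCS and 469 to 552 in sml1Δ, and that of the a-specific genes 1726 to 2101 in SSDDCS and 836 to 1845 in sml1Δ. The part of these markers in the other differences was not tested.

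**Figure D2:**
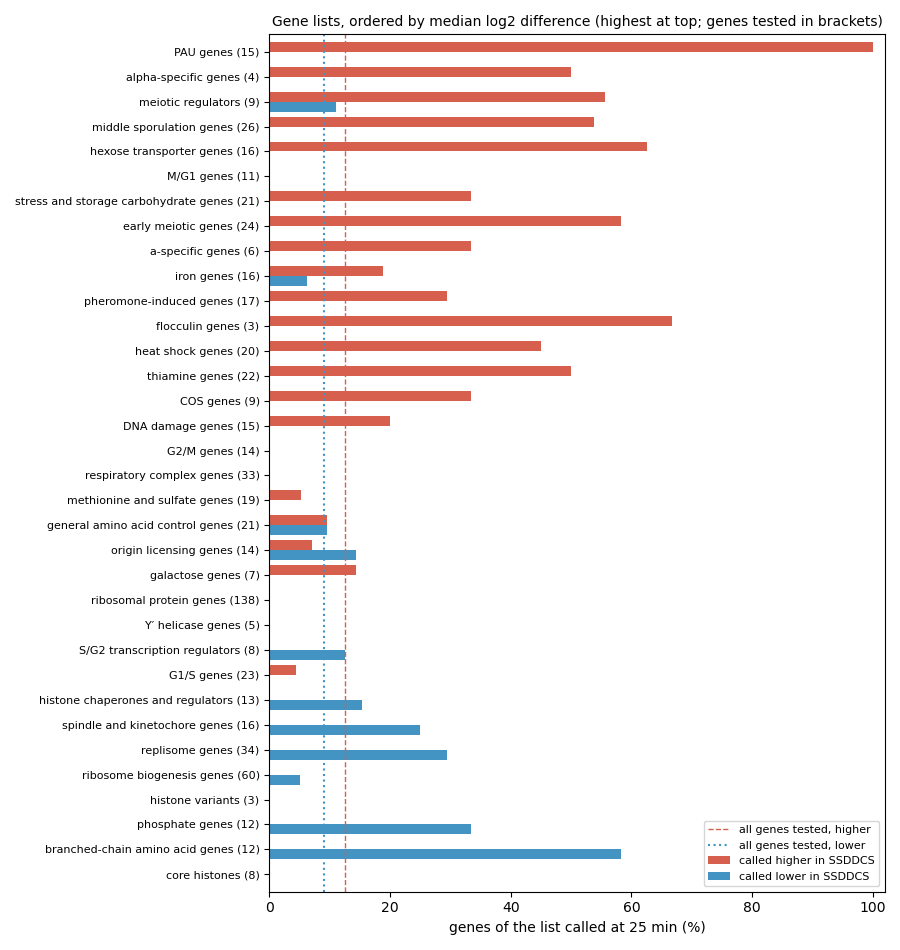
Percentage of each gene list called higher (red) or lower (blue) in SSDDCS at 25 min (horizontal axis), with lists down the page by median log2 difference and the number of genes tested in brackets; dashed and dotted lines mark 12.5% and 9.03%, the shares over all genes. PAU, meiotic, sporulation and hexose transporter lists extend to the right in red, whereas branched-chain amino acid, phosphate and replisome genes extend in blue.

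Genes of leucine and valine synthesis were prominent among the lower genes, with 7 of 12 branched-chain amino acid genes called lower and none higher. The share called lower over all genes was 9.03%. LEU1, isopropylmalate isomerase, had 3319, 7761 and 2929 in SSDDCS, against 21669, 12364 and 15181 in sml1Δ (−1.92, SE 0.53, limma adjusted p 0.00339). OAC1, a mitochondrial carrier of the pathway, had 1074, 2608 and 945 in SSDDCS and 4738, 3516 and 4001 in sml1Δ (−1.55, SE 0.45, limma adjusted p 0.00578). SSDDCS replicate 3 was closest to the control in both genes. BAT1 (−1.42), a branched-chain aminotransferase, and ILV2 (−1.09), acetolactate synthase, were called lower as well. These differences were present before release: in G1 LEU1 stood at −2.14, OAC1 at −2.26 and BAT1 at −1.77. The list had a median of −0.65, and of −0.44 in G1, and none of its 12 genes was called relative to G1. The strains differ in LEU2 itself, and the parts of replication and of this marker were not tested. Leaving out a single culture left between 1 and 7 of the 7 calls, with 1 left without SSDDCS replicate 4 or sml1Δ replicate 1 and 2 left without SSDDCS replicate 1 or sml1Δ replicate 4.

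Other lower genes fell into smaller groups. GWT1, which acts in GPI anchor synthesis, had 191, 214 and 255 in SSDDCS, against 878, 1039 and 881 in sml1Δ (−2.08, SE 0.14, limma adjusted p 1.35e-21). It lies on chromosome X at 261080 to 262552, beside the native DPB11 gene (262757 to 265051). The added DPB11 copy is at trp1. PHO84 (−1.003), the phosphate transporter gene, VTC4 (−0.69), VTC1 (−0.63) and VTC2 (−0.51), of the polyphosphate polymerase, were the 4 called of 12 phosphate genes. All were lower, as were 9.03% of all genes. The list had a median of −0.47, and of −0.42 in G1, and none of its genes was called relative to G1. The replicate block gave 6 lower calls and 1 higher call. Of these 12, 1 was called lower without SSDDCS replicate 1 or sml1Δ replicate 1 and 2 without sml1Δ replicate 4, and 1 was called higher without SSDDCS replicate 3 or with the replicate block. PHO81, which encodes an inhibitor of the phosphate-sensing kinase, was outside that list and fell by 0.95. ALD5 (−1.37), a mitochondrial aldehyde dehydrogenase gene, GIT1 (−1.36), a glycerophosphoinositol transporter gene, and ISU2 (−1.35), an iron-sulphur scaffold gene, were lower and had differed by −1.45, −1.22 and −1.93 in G1. Ribosome biogenesis genes had a median of −0.39 (−0.18 in G1), but 3 of 60 were called lower, against 9.03% of all genes (RRP9 at −0.54, RRP40 at −0.46 and RRP3 at −0.42). With the replicate block 13 were called, with DESeq2 6, without sml1Δ replicate 3 the count was 22, and without any other single culture it was 0 or 1. None of the 138 genes matched as ribosomal protein genes was called, and 19 had non-overlapping, lower values (20.6% of all genes did so). With the replicate block 2 were called lower, and without sml1Δ replicate 3 there was 1. RPP1, which encodes a subunit of RNase P and was taken into that list by its name, was at −0.37 (limma adjusted p 0.0284, and 0.00958 with the replicate block).

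Lists with few or mixed calls completed the survey, to be read beside the 12.5% of all genes called higher and 9.03% called lower. Among 16 iron genes, FIT1 (1.12), ARN2 (1.12) and FRE2 (1.09) were called higher and ISU2 lower. Among 21 genes of general amino acid control, LYS1 (1.08) and LYS9 (0.84) were called higher and HIS1 (−0.62) and TRP5 (−0.29) lower. The sulphate transporter gene SUL1 (0.64) was the single call of 19 methionine and sulphate genes, and GAL80 (0.30) of 7 galactose genes. COS9 (0.75), COS10 (0.63) and COS7 (0.47) were called among 9 COS genes, and FLO10 (0.88) and FLO5 (0.58) among 3 flocculin genes. Of these lists, the COS genes had 1 call without SSDDCS replicate 1 or 4 or sml1Δ replicate 4, and the SUL1 call was lost without SSDDCS replicate 1 or sml1Δ replicate 3. Among the fits without a single culture, the GAL80 call was kept only without sml1Δ replicate 1, the ISU2 call only without SSDDCS replicate 3, and both lower amino acid control calls only without replicate 3 of either strain. With the replicate block 5 iron genes were called higher. No respiratory complex gene of 33 was called (SDH4 at 0.51, limma adjusted p 0.158), no histone variant gene of 3 (HTZ1 at −0.50, 0.0268) and no Y′ helicase gene of 5 (YRF1-2 at −0.17, 0.483). YOR203W (4.51), YDR008C (3.63), YDR053W (3.50) and YOR225W (−1.51) also met the naming rule. They have no position in the annotation used, and their systematic numbers are next to those of HIS3 (YOR202W), TRP1 (YDR007W), DBF4 (YDR052C) and ISU2 (YOR226C), so reads of these neighbours may be shared.

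The position of a gene relative to replication origins was then examined, in classes of distance set after the values were seen. Genes near an annotated origin were more often higher and genes far from one more often lower. Among 542 genes under 2 kb from an origin and at least 50 kb from a chromosome end, 22.9% were called higher and 2.03% lower. Of 1257 genes 20 kb or more away, 4.30% were called higher and 20.7% lower. The median difference declined over the 5 classes, from 0.18 under 2 kb through 0.06, 0.05 and −0.07 to −0.18 at 20 kb or more. In pairs 1, 3 and 4 the medians were 0.21, 0.12 and 0.20 in the nearest class and −0.19, −0.19 and −0.16 in the farthest. In G1 the class medians lay between −0.01 and 0.00.

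Single libraries showed the same order. The median log2 value of the 1275 genes under 5 kb minus that of the 1257 genes at 20 kb or more was 0.34, 0.31 and 0.31 in the SSDDCS libraries, against 0.03, 0.01 and 0.08 in the sml1Δ libraries. In G1 it was 0.07 to 0.13 in SSDDCS and 0.08 to 0.11 in sml1Δ. Relative to G1, the value at 25 min was thus higher in SSDDCS and lower in sml1Δ, with no overlap between the strains at 25 min. The median gene length was 1192 bases under 2 kb and 1263 bases at 20 kb or more. Under equal library totals the medians of the nearest and farthest classes were 0.22 and −0.14, under quantile normalization 0.12 and −0.25, and without sml1Δ replicate 3 0.20 and −0.16.

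The shares also varied with level. Genes were divided into 5 equal classes by mean level per kb over all libraries. In the lowest class, 46.3% of 257 genes under 5 kb were called higher and 0.39% lower, with a median of 0.54. In the same class, 11.0% of 272 genes at 20 kb or more were called higher and 15.8% lower, with a median of −0.07. In the highest class the medians were −0.03 near origins and −0.14 far from them. In each of the 5 classes the near median was above the far median. HUG1 (0.22 kb), MSH4 (0.20 kb) and DMC1 (0.72 kb) lie close to an origin, and CLB3 (35.2 kb), POL32 (23.7 kb) and HIR2 (66.6 kb) lie far from one. Other named genes, like these chosen after their values were seen, went against this order: NDT80 (34.8 kb), FLO5 (25.1 kb) and LYS9 (23.1 kb) were called higher, and ORC3 (3.32 kb), GIT1 (2.97 kb) and OAC1 (4.24 kb) lower. HTB2, which was not called, lies at 1.15 kb.

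**Figure D3:**
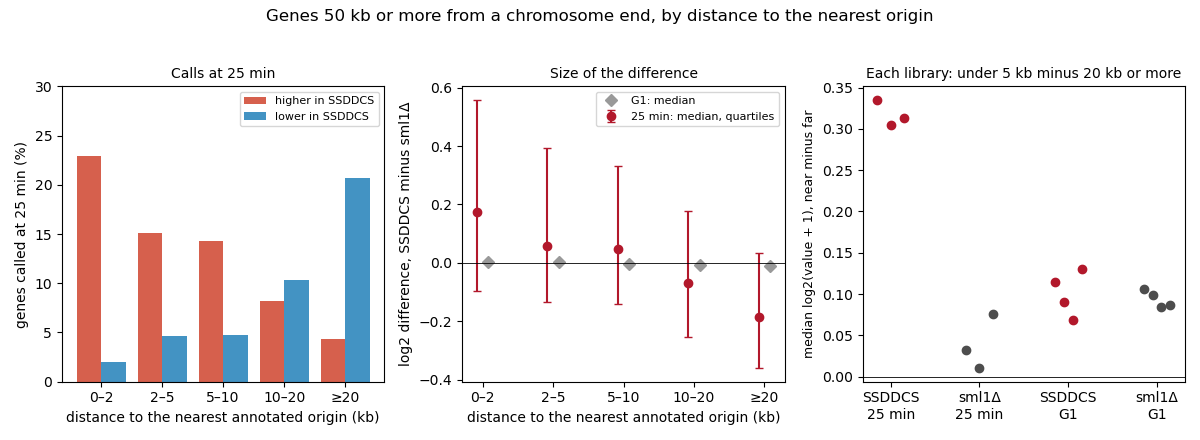
Genes at least 50 kb from a chromosome end by distance to the nearest annotated origin: left, percentage called higher (red) or lower (blue) at 25 min; centre, median log2 difference with quartiles at 25 min (red) and median in G1 (grey); right, for each library, median log2 value of genes under 5 kb minus that of genes at 20 kb or more. Higher calls decline from 22.9% to 4.30% and lower calls increase from 2.03% to 20.7% with distance, and the 3 SSDDCS libraries at 25 min (0.31 to 0.34) stand above the other 11.

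Chromosome ends were a further site of higher calls. Of 202 genes within 20 kb of an end, 39.1% were called higher and 1.98% lower, with a median of 0.48, and the 83 of them whose stretches are all unique had a median of 0.44. Between 20 and 50 kb the shares were 20.4% and 6.88%, and beyond 50 kb 11.0% and 10.0%. Levels also differed: the median level per kb was 208 within 20 kb, 358 between 20 and 50 kb and 495 beyond 50 kb. In the lowest level class of genes at least 50 kb from an end, 28.4% were called higher and 5.41% lower. The part of level in the shares near ends was not tested. Of 175 genes within 10 kb of a centromere 15.4% were called higher and 4.57% lower, with a median of 0.03. The hexose transporter genes HXT9 and HXT12, the THI5 family and most PAU genes lie near ends.

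The difference at 25 min was last set against that at other times of the same cultures. Relative to G1, 564 genes (8.81%) were called, 370 (5.78%) with a positive and 194 (3.03%) with a negative change in the strain difference, and the genes called at 25 min had a median G1 difference of 0.04 (higher calls) or −0.02 (lower calls). The count of 564 was 278 without SSDDCS replicate 1, 367 without SSDDCS replicate 4, 953 with the replicate block and 1113 with a correlation between libraries of a culture. With the construct and marker genes left out, and among genes averaging 50 or more in some group of the contrast, the 3 biggest positive changes were those of HXT14 (4.36), THI4 (3.40) and LDS1 (3.32), and the 3 biggest negative ones those of GWT1 (−1.01), YDR053W (−1.001) and PHO81 (−0.81). By contrast, limma called no gene (0.0%) for 25 against 20 min or for 25 against 30 min. At an unadjusted p under 0.05 there were 195 genes against 20 min and 117 against 30 min, and edgeR and DESeq2 also called none. For genes called higher the median difference was 0.63 at 20 min, 0.84 at 25 min and 0.83 at 30 min, and for genes called lower −0.30, −0.42 and −0.39. Because these genes were chosen by their 25 min values, that choice favours larger medians at 25 min than at the other times, G1 included.

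The control course put these levels in context. THI4 averaged between 15.7 and 31.2 in sml1Δ over the 12 time points, and DMC1 between 69.4 and 144 with its highest mean in G1. In sml1Δ HTB2 and CLB3 both had their highest mean at 25 min, 13254 and 1245. POL32 in sml1Δ was highest at 10 min, and its mean was already declining by 25 min in both strains.

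**Figure D4:**
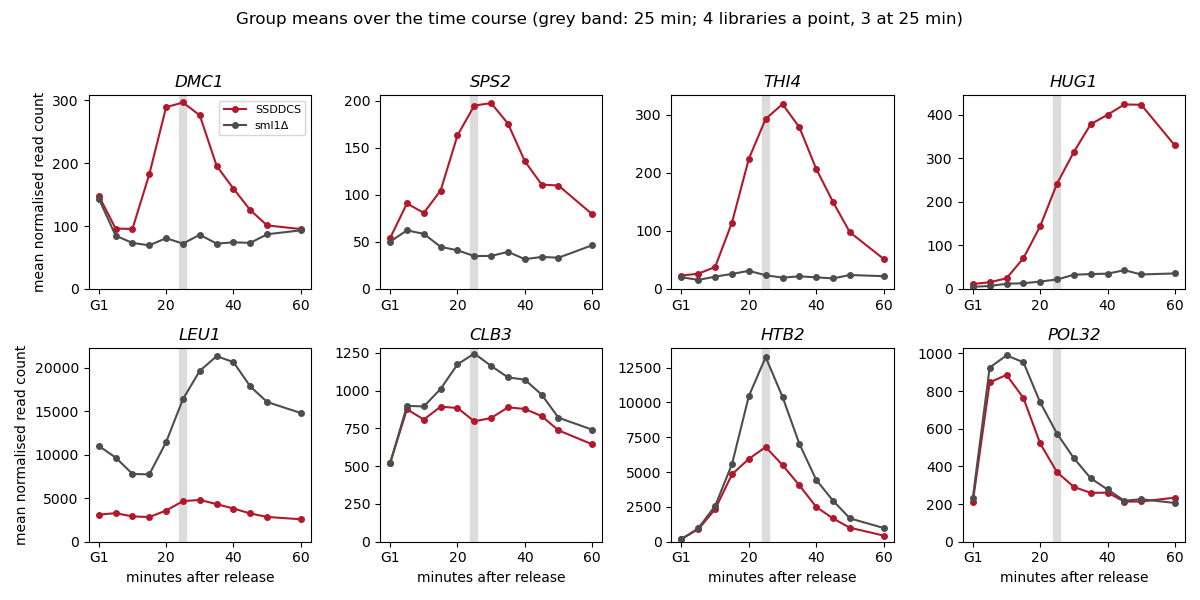
Mean normalised read counts (vertical axes, linear from 0) of 8 genes against minutes after release (horizontal axis) in SSDDCS (red) and sml1Δ (grey), with 25 min in a grey band. DMC1, SPS2, THI4 and HUG1 diverge upward in SSDDCS by 25 min, LEU1 lies below the control from G1 on, and CLB3 and HTB2 differ at the control's highest mean.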

How the data were processed

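Total RNA was sequenced from 4 cultures of each strain at 12 times, giving 94 libraries. The authors deposited normalised read counts, a signal formed by dividing the reads per gene by a DESeq2 size factor for each library. The submitters' processing notes name cutadapt, TopHat2 2.0.6 and sacCer3, and the study's methods name another aligner. How reads matching several places were treated is not given in the sources used here, and the library kit is not stated to mark strand. Whole reads were recovered for 100.0% of values (within 0.0001 reads). Values were tested as log2(value + 1) with limma 3.58.1 (R 4.3.3, trend) over 24 strain-by-time means, after leaving out 30 genes with a mean under 10. P-values were adjusted by Benjamini-Hochberg over 6414 genes, and an adjusted p under 0.01 was a call. P-values measure the spread between libraries of the same strain and time, pooled over all 12 times. Libraries of a culture at different times were counted as independent, though their correlation was 0.38. The p-values therefore do not measure the spread between cultures at 25 min alone. The alternatives used edgeR 4.0.16 and DESeq2 1.42.0 on recovered reads, other scalings, pseudocounts and filters, blocks, and fits without single cultures at all their times. Same-numbered libraries deviated together at 25 min (r 0.50, 0.33 and 0.28), so the numbers were taken to pair the cultures, and blocked values are given where they change a named gene's call or move a count by over 1.5 times, and for some other lists. In all, 2 columns with no matching labelled sample were not used. SML1 was not analysed here. Named genes were the 10 construct and marker genes, the 8 called genes of each sign with the largest difference (mean of at least 50, no overlap), up to 4 called members of each list or its largest uncalled member, the 3 largest of each sign against other times, and 6 added by name (THI12, IME2, NDT80, CLN2, CLB5 and CLB6). Genes, lists and comparisons were chosen with earlier results of these data known. Genes were placed on RefSeq's R64 annotation, and a stretch was unique if its 50 bases occur at a single place in that genome.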

Additional observations from a re-analysis of the deposited data

Results flagged for a closer look

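The strain difference at 25 min was not the same as in G1 for 564 genes, by a limma test of the difference between the differences (278 without SSDDCS replicate 1 and 1113 with a correlation between libraries of a culture). Of these, HXT14 changed by 4.36, THI4 by 3.40 and LDS1 by 3.32 on the log2 scale, the difference at 25 min minus that in G1. GWT1 changed by −1.01, YDR053W by −1.001 and PHO81 by −0.81. GWT1 lies beside the native DPB11 gene, whereas the added DPB11 copy is at trp1. YDR053W has the systematic number next to that of DBF4.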

How the results depend on the processing

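Of 106 named genes called, 66 kept the call in every one of 18 settings apart from the fits to the 25 min libraries alone. Those fits called 399 genes (357 higher, 42 lower, 89.5% higher), or 344 with a replicate block (322 higher, 22 lower, 93.6% higher, 216 at least 2-fold). With the replicate block over all times, 869 genes were called lower and 953 against G1, and with a correlation between libraries of a culture 1113 against G1. The fits to 25 min alone used fewer samples, and the cause of these changes was not tested. The share of higher calls was 69.2% with equal library totals and 43.9% with quantile normalization. Leaving out single cultures at all their times gave 876 to 1415 calls, 533 to 778 higher, 343 to 637 lower, a share of 55.0% to 61.5% higher, 243 to 360 at least 2-fold, and 278 to 485 against G1. The extremes came without SSDDCS replicate 1 (278 against G1), SSDDCS replicate 4 (876 calls) and sml1Δ replicate 3 (1415 calls). YRF1-2, not called, lay between −0.30 (without sml1Δ replicate 4) and 0.041 (without sml1Δ replicate 3). Pseudocounts of 0.1 and 5, no filter, edgeR and DESeq2 kept the total counts within 1.5 times. With 3 libraries a strain, an exact permutation test of a single gene cannot go below 0.1.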
